A study of Homo sapiens with 4 samples.

Results

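Genes of glycolysis and of the cellular response to low oxygen were examined in SCP2 cells, a bone-colonising human breast cancer subline derived from MDA-MB-231. The set holds 38 named genes: the subunits of the hypoxia-inducible factors (HIF) and their prolyl hydroxylases, glucose and lactate transporters, the enzymes from hexokinase to lactate dehydrogenase with their regulators, and a group of genes known to be induced in hypoxia. A member was taken where the probe-to-gene table gives a probe set that symbol alone, which held for 37 of the 38 genes through 89 probe sets, out of 19775 genes on the array. The lactate exporter gene SLC16A3 has no probe set of its own in that table, and its level was not analysed here. The oxygen sensor gene EGLN3 read 0.26 to 0.31, under the filter for dim genes, and 36 members were kept.

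The study overexpressed DLC1, a RhoGAP known as a tumour suppressor, in SCP2 cells, used vector cells as the control, and profiled both with or without TGF-beta. Its title concerns bone metastasis. The 4 groups are vector cells, vector cells given TGF-beta, DLC1 cells, and DLC1 cells given TGF-beta, with 1 array each. The labels do not say whether the lines are clones or pools, nor the vector, oxygen level, medium, TGF-beta dose or time. With 1 array a group the spread between samples of a group was not measured. No test was made and no p-value is given, a fit that assumes the effects of DLC1 and TGF-beta to add was not run, and precision is limited by there being only 4 arrays. Fewer cells carrying a transcript and less of it per cell cannot be told apart in such bulk RNA.

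In low oxygen, HIF alpha subunits escape the hydroxylases that mark them for destruction, pair with the beta subunit ARNT and bind response elements beside their target genes. Among those targets are glucose transporters and glycolytic enzymes, which let a cell make ATP without respiration, and genes for mitophagy, histone demethylation and collagen hydroxylation. The alpha subunits are controlled mostly as proteins, so their transcripts do not report HIF activity by themselves. Breast cancer lines of this kind are known for strong glycolysis even in air.

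Levels are intensities in arbitrary units and differences are on the log2 scale, where 1 is a 2-fold change. Rose and fell are used of genes at or past 2-fold. On all arrays, all 7 markers of the MDA-MB-231 line lay above the filter, with a summed intensity of 514 to 628. The luminal genes PGR, CDH1 and FOXA1 lay below it, while the other 5 luminal genes of the list lay above. Also below were the leukocyte genes PTPRC and CD3E and the stromal and endothelial genes CDH5, VWF, DCN and LUM. The leukocyte genes CD14, ITGAM and CSF1R lay at or above it, except CSF1R in the untreated array labelled DLC1. The stromal and endothelial genes PECAM1, KDR, PDGFRB and ACTA2 lay above it on all arrays. DLC1 itself does not settle the labels: its brightest probe set, 210762_s_at, read 1.77 and 2.51 in the vector arrays and 3.38 and 3.64 in those labelled DLC1, while 224822_at read 1.79 and 2.41 against 1.44 and 1.69. The arrays are therefore called the arrays labelled DLC1.

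The first question is how these genes differ between the cells labelled as overexpressing DLC1 and the vector cells. Of the 9 hypoxia-induced members outside glycolysis, 2 rose in the arrays labelled DLC1 without TGF-beta and 1 with it. The others stayed within 2-fold, as did the glycolytic enzymes, which lay on both sides of 0. NDRG1 and ANKRD37 rose past 2-fold without TGF-beta, and ANKRD37 and the glucose transporter gene SLC2A3 rose past it with TGF-beta. MXI1 came close in both states, and EPAS1 with TGF-beta only. No member fell past 2-fold in either state. Without TGF-beta 2 of 36 members rose, where 1.63% of the 13137 kept genes did, and 2.34% of them fell. With TGF-beta 2 of 36 members rose, against 1.46% of all kept genes, and 1.64% of those fell. Each count is small, since 1 gene is 2.78% of the members. At 1.5-fold, 6 members were higher without TGF-beta (SLC2A3, ALDOC, NDRG1, ANKRD37, KDM3A and MXI1), where 5.84% of all kept genes were, and 5 with it (EPAS1, SLC2A3, NDRG1, ANKRD37 and MXI1), where 5.91% were. SLC2A3, NDRG1, ANKRD37 and MXI1 were so in both states, against 3.86% of all kept genes. No member was lower by 1.5-fold, where 8.89% and 6.71% of all kept genes were.

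**Figure D1:**
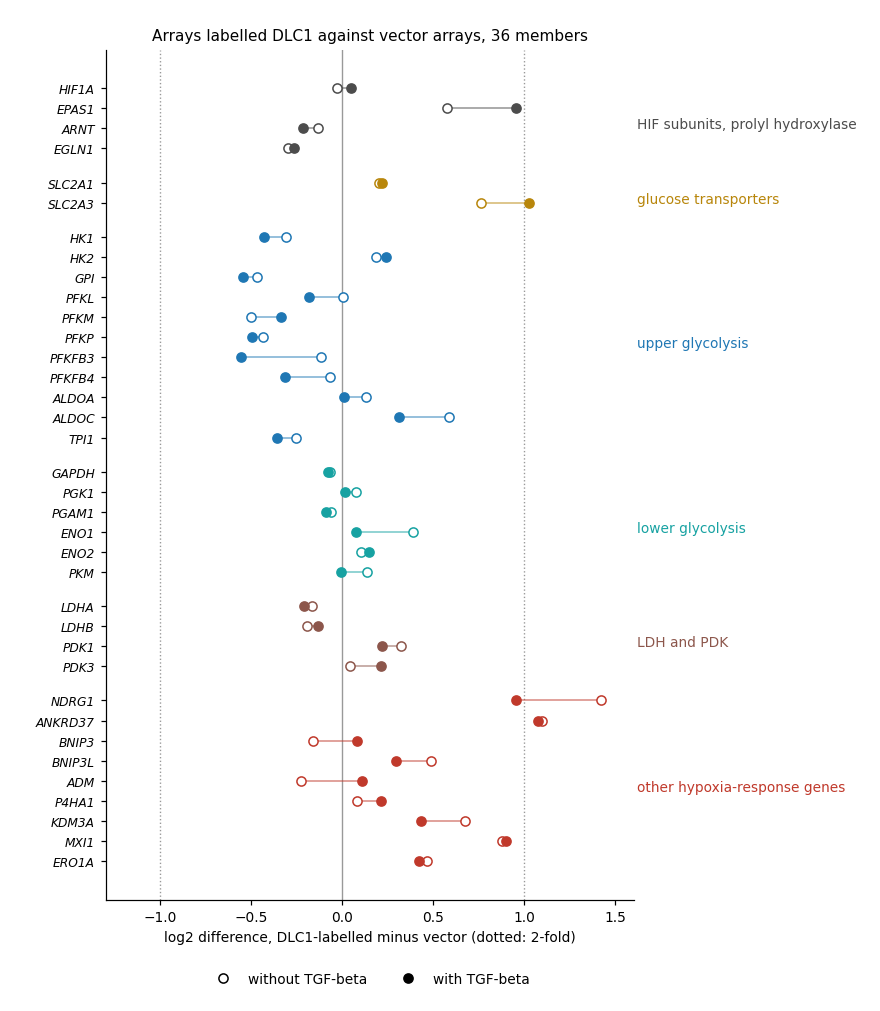
Log2 difference of each of the 36 kept members between the arrays labelled DLC1 and the vector arrays, without TGF-beta (open circles) and with it (filled circles), ordered by role, with dotted lines at 2-fold. NDRG1, ANKRD37 and SLC2A3 are the members that reach the upper line, and none reaches the lower one.

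The largest differences without TGF-beta lay among hypoxia-induced genes outside glycolysis. With it, the transporter gene SLC2A3 at 1.03 came next to ANKRD37 at 1.08, and EPAS1 at 0.95 lay close to NDRG1. NDRG1 (200632_s_at), a gene of differentiation and stress responses widely used as a hypoxia marker, read 12.06 in the vector array, 15.77 in the vector array with TGF-beta, 32.33 in the array labelled DLC1 and 30.57 in that array's TGF-beta counterpart. Both arrays labelled DLC1 lay well above both vector arrays. The difference was 1.42 without TGF-beta, a 2.68-fold rise, and 0.95 with it, or 1.94-fold. With arrays centred on housekeeping genes it passed 2-fold with TGF-beta as well.

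ANKRD37 (227337_at), which encodes a small ankyrin repeat protein and is a direct HIF target, read 1.91 and 2.33 in the vector arrays without and with TGF-beta, and 4.09 and 4.91 in the arrays labelled DLC1. The groups were again apart, and the rise was 2.14-fold and 2.11-fold. ANKRD37 was the only member past 2-fold in both states, where 0.868% of all kept genes rose and 1.13% fell in both. Its other probe set, 242548_x_at, read 0.23 to 0.29 and lay under the filter.

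MXI1 (202364_at), an antagonist of MYC that HIF induces, read 14.05 and 13.03 in the vector arrays and 25.85 and 24.33 in the arrays labelled DLC1. These differences of 0.88 and 0.90 amount to 1.84-fold and 1.87-fold, just short of the fold that counted as changed, and hardly depended on TGF-beta. KDM3A, a histone demethylase, read 9.10 and 12.35 against 14.52 and 16.64, with differences of 0.67 and 0.43. BNIP3L, a receptor for the removal of mitochondria, read 25.79 and 35.27 against 36.10 and 43.31. Its differences were 0.49 and 0.30, and its other probe set, 221479_s_at, gave 0.58 and 0.36.

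ERO1A, which encodes an oxidase of the endoplasmic reticulum, read 21.39 and 22.01 against 29.55 and 29.50 in its brightest probe set, with differences of 0.47 and 0.42. Its probe set 218498_s_at gave 0.18 and 0.28 and 225750_at gave -0.05 and -0.07, so the sets part. P4HA1, a collagen prolyl hydroxylase subunit, gave 0.08 and 0.21. The remaining hypoxia-induced members lay on opposite sides of 0 in the 2 states. BNIP3, the close relative of BNIP3L, gave -0.16 and 0.08, with 0.16 and 0.21 in its other probe set, and ADM, the gene of the vasodilator peptide adrenomedullin, gave -0.23 and 0.11. Of the 9 members in this role, 7 lay above 0 in both states and 0 lay below 0 in both, or 77.8% and 0%, where 36.1% and 42.7% of all kept genes did. Their medians were 0.49 without TGF-beta and 0.42 with it, and those of all kept genes were -0.03 and -0.02. The members were chosen with earlier results of these data known, so such shares and medians describe the set and are no test.

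**Figure D2:**
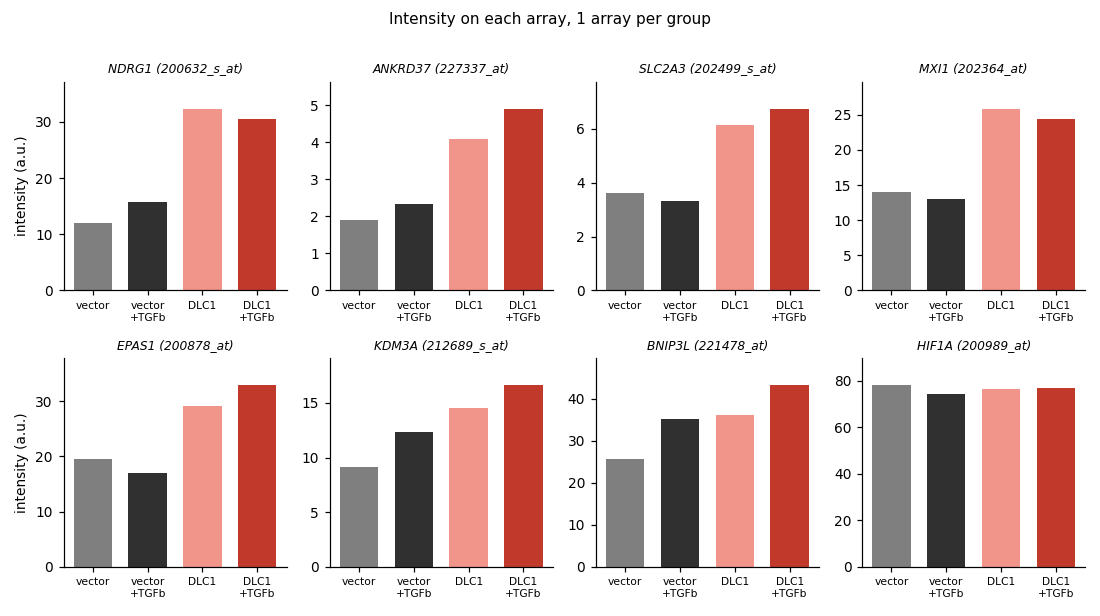
Intensity in arbitrary units of 8 members on each of the 4 arrays, as bars from 0, with 1 array per group and hence no error bar. NDRG1, ANKRD37, SLC2A3, MXI1, EPAS1, KDM3A and BNIP3L are higher on both arrays labelled DLC1 than on both vector arrays, and HIF1A stays between 74.18 and 78.14.

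HIF binds DNA at a short core, spelled ACGTG or GCGTG, and promoters of members that were higher in the arrays labelled DLC1 are shown with every match to either spelling, on either strand, in capitals. A match on the opposite strand reads CACGT or CACGC, and CACGTG holds a match on both strands. The sequences are RefSeq windows of 300 bases, 250 before and 50 after a gene's start, 5′ to 3′ on the gene's strand, from GRCh38.p14. The genes were those with the highest smaller difference over the 2 states among members with a window in the table. SLC2A3, NDRG1 and BNIP3L are not in it. The windows are ANKRD37 at chr4:185396591-185396890, MXI1 at chr10:110209981-110210280, EPAS1 at chr2:46297157-46297456 and KDM3A at chr2:86441121-86441420, all on the plus strand.
ANKRD37: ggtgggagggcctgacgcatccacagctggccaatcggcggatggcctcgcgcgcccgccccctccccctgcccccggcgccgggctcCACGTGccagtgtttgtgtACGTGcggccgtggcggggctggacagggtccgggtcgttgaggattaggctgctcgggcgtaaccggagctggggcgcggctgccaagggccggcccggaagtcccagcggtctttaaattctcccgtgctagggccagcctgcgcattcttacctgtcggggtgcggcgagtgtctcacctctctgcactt
MXI1: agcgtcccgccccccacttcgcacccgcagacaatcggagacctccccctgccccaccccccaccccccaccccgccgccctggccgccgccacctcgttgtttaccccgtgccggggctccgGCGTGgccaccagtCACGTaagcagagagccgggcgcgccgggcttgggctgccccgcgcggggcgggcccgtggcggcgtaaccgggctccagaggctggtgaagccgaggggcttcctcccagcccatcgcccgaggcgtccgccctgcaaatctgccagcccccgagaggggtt
EPAS1: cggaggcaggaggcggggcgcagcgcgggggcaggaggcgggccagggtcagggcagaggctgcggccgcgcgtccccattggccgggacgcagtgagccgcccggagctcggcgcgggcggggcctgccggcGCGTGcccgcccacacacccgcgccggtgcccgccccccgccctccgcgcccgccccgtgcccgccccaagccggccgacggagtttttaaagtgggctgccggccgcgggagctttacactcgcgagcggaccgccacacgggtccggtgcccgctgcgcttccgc
KDM3A: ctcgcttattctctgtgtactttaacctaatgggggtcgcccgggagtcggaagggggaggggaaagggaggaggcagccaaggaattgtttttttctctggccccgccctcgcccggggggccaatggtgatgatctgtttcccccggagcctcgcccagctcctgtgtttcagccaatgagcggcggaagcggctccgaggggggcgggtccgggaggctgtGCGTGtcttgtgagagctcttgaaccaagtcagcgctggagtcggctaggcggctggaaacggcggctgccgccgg
The ANKRD37 window holds 3 matches, all to ACGTG, of which 2 overlap on opposite strands. MXI1 has 3 windows in the table, and the first of those with the most matches is shown, which holds 1 match of each spelling. KDM3A has 2 windows that overlap. EPAS1 and KDM3A hold 1 match to GCGTG each. Of the 38 members 35 are in the table. Over the 59 windows of kept members, 69.5% held at least 1 match, against 59.4% of the 15451 windows of kept genes and 48.4% of all 35116 windows. ACGTG was in 40.7%, 24.9% and 21.4% of these windows, and GCGTG in 45.8%, 47.4% and 36.5%, so for GCGTG the members' share lay below that of kept genes. Several windows of a gene can overlap, and a match is a description of letters, not of binding.

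The HIF alpha subunits differed from each other. HIF1A, the alpha subunit present in most cells, read 78.14 and 74.18 in the vector arrays and 76.48 and 76.66 in those labelled DLC1, a difference of -0.03 and 0.05. EPAS1, which encodes HIF-2 alpha, read 19.52 and 17.02 against 29.12 and 32.94, with differences of 0.58 and 0.95. The gap between EPAS1 and HIF1A in these differences was 0.61 without TGF-beta and 0.91 with it. ARNT, the beta subunit, gave -0.13 and -0.21 in its brightest probe set, while its 3 other probe sets above the filter ran from -0.09 to 0.22 and from -0.38 to 0.36. EGLN1, the main HIF prolyl hydroxylase, read 13.26 and 13.24 against 10.80 and 11.01. Its differences were -0.30 and -0.27. Of its other probe sets above the filter, 221497_x_at gave -0.19 and -0.18 and the dimmer 224314_s_at gave 0.08 and -0.09.

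Among the transporters, SLC2A3 (202499_s_at), a glucose transporter of high affinity, read 3.63 and 3.31 in the vector arrays and 6.16 and 6.75 in the arrays labelled DLC1. It was 1.70-fold higher without TGF-beta and rose 2.04-fold with it. Its other probe sets, 202497_x_at and 202498_s_at, gave 0.35 and 0.38 when TGF-beta was absent and 0.74 and 0.76 when it was present, so all 3 lay above 0 and only the brightest passed 2-fold. With the mean of the probe sets in its place the difference with TGF-beta was 0.84, under 2-fold. The table assigns 2 more probe sets to both SLC2A3 and its near-identical relative SLC2A14, so signal from both genes may be mixed in any of these sets. Of these, 222088_s_at read 1.59 and 1.70 against 2.57 and 3.27, and 216236_s_at read 1.96 and 1.82 against 2.33 and 2.69. SLC2A1, the widespread basal glucose transporter, read 10.11 and 12.96 against 11.64 and 15.07, a difference of 0.20 and 0.22, with -0.08 and 0.22 in its dim probe set.

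**Figure D3:**
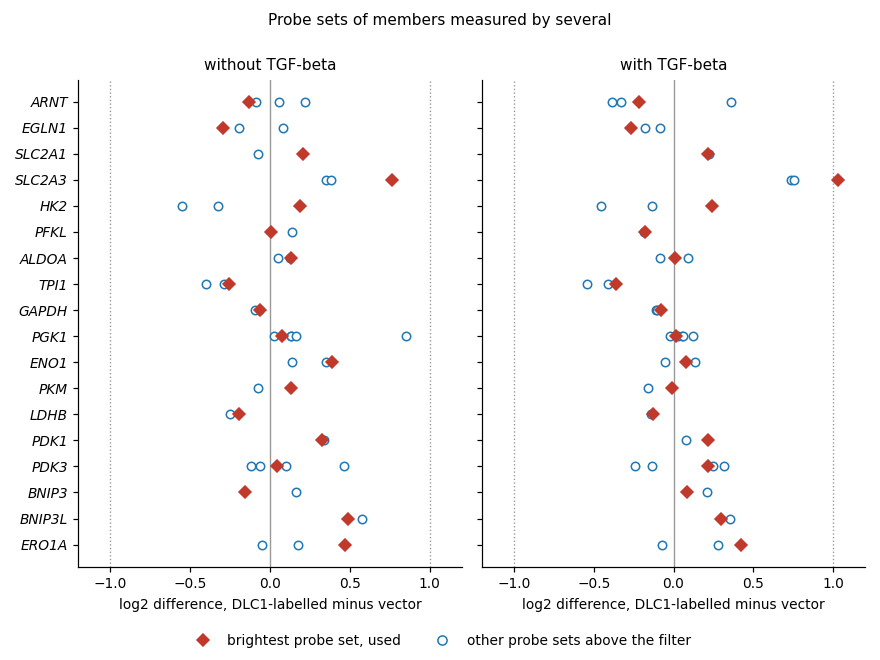
Log2 difference between the arrays labelled DLC1 and the vector arrays for each probe set above the filter, for the 18 members measured by several, without TGF-beta (left) and with it (right). Diamonds mark the probe set used for the gene, and dotted lines mark 2-fold. The 3 sets of SLC2A3 all lie above 0, while those of HK2 and ERO1A lie on both sides of 0.

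The enzymes of the glycolytic steps and lactate dehydrogenase, 17 members, stayed within 2-fold in both states. Their medians were -0.06 and -0.09, and 6 lay above 0 in both states and 9 below. These shares, 35.3% and 52.9%, stand beside 36.1% and 42.7% of all kept genes. Of those 9, 5 belong to the upper steps of the pathway, which spend ATP. GPI, the isomerase of the second step, read 8.06 and 7.94 in the vector arrays and 5.83 and 5.45 in the arrays labelled DLC1, a difference of -0.47 and -0.54. PFKP and PFKM, isoforms of phosphofructokinase, the committed step, read 15.44 and 14.63 against 11.40 and 10.36, and 8.75 and 6.58 against 6.17 and 5.22. The differences were -0.44 and -0.50 for PFKP and -0.50 and -0.33 for PFKM. For all of these genes both arrays labelled DLC1 lay below both vector arrays. PFKL, the liver isoform, read 2.23 and 2.13 against 2.24 and 1.88, and the groups overlapped.

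HK1, the constitutive hexokinase, gave -0.31 and -0.43, and TPI1, the triose phosphate isomerase, -0.26 and -0.36. HK2, the inducible hexokinase, gave 0.19 and 0.24 in its brightest probe set, 202934_at, but 222305_at gave -0.32 and -0.46 and 239410_at -0.55 and -0.14, so its direction is not settled. ALDOA, the aldolase of muscle and most tumours, gave 0.13 and 0.01. ALDOC, an isozyme best known from brain, read 0.68 and 0.62 against 1.02 and 0.77, a difference of 0.58, or exactly 1.5-fold, and 0.31 on dim values. PFKFB3 and PFKFB4, which set the level of the phosphofructokinase activator fructose 2,6-bisphosphate, gave -0.12 and -0.07 when untreated and -0.56 and -0.32 under TGF-beta.

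The lower steps of the pathway, which yield ATP, differed less. GAPDH gave -0.07 and -0.08, PGAM1 -0.06 and -0.09, PGK1 0.08 and 0.02, ENO2 0.10 and 0.15 and PKM 0.13 and -0.01. ENO1, the common enolase, read 68.52 and 75.36 against 89.65 and 79.47, a difference of 0.39 and 0.08, the widest of this group without TGF-beta but not with it. The lactate dehydrogenase genes LDHA and LDHB gave -0.17 and -0.21, and -0.19 and -0.13. PDK1 and PDK3, kinases that inhibit pyruvate dehydrogenase, gave 0.32 and 0.22, and 0.04 and 0.21. Of the kept members, 14 lie in the brightest 10% of kept genes, where 1.9% passed 2-fold in either direction without TGF-beta and 1.6% with it, against 3.97% and 3.11% of all kept genes.

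Counted by position alone, 15 of 36 members had both arrays labelled DLC1 above both vector arrays and 10 had them below, or 41.7% and 27.8%. Over all kept genes the shares were 28.7% and 33.1%. The 15 include 6 of the 9 hypoxia-induced genes outside glycolysis, namely NDRG1, ANKRD37, BNIP3L, KDM3A, MXI1 and ERO1A, with EPAS1 and SLC2A3. The rest of the 15 are the glycolytic enzyme genes ALDOA, ALDOC, PGK1, ENO1 and ENO2, with PDK1 and PDK3. The 10 are EGLN1 and enzymes of glycolysis and lactate dehydrogenase. The array's controls for 18S ribosomal RNA were higher in the arrays labelled DLC1 too, by 0.43 to 0.85 in the untreated pair and by 0.07 to 0.35 in the pair given TGF-beta. Their part in these differences was not tested. The summed intensity of leukocyte markers was 2.92 and 2.49 in the arrays labelled DLC1 against 3.04 and 2.63, and that of endothelial and stromal markers 3.04 and 3 against 3.22 and 3.47.

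The response to TGF-beta was compared in vector cells and in cells labelled DLC1. No member passed 2-fold in either, while of all kept genes 1.21% were at least 2-fold higher and 0.693% lower in vector cells, and 0.792% and 0.107% in cells labelled DLC1. In both backgrounds together the shares were 0.624% and 0.0609%. At 1.5-fold, PFKFB3 and PFKFB4 were the members that were higher in vector cells, against 3.15% of all kept genes, and none was lower, against 2.91%. No member passed 1.5-fold in cells labelled DLC1, where 2.31% of all kept genes were higher and 1.06% lower. Among the brightest 10% of kept genes, 0.913% and 0.761% passed 2-fold in either direction in vector cells and in cells labelled DLC1, beside 1.9% and 0.898% of all kept genes. Medians over the members were 0.01 and -0.04, beside -0.03 and -0.01 for all kept genes. The highest member was PFKFB3 in vector cells and PFKFB4 in cells labelled DLC1, and HK2 was the lowest in both. PFKFB3 and PFKFB4 were higher with TGF-beta and HK2 was lower, in both backgrounds.

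**Figure D4:**
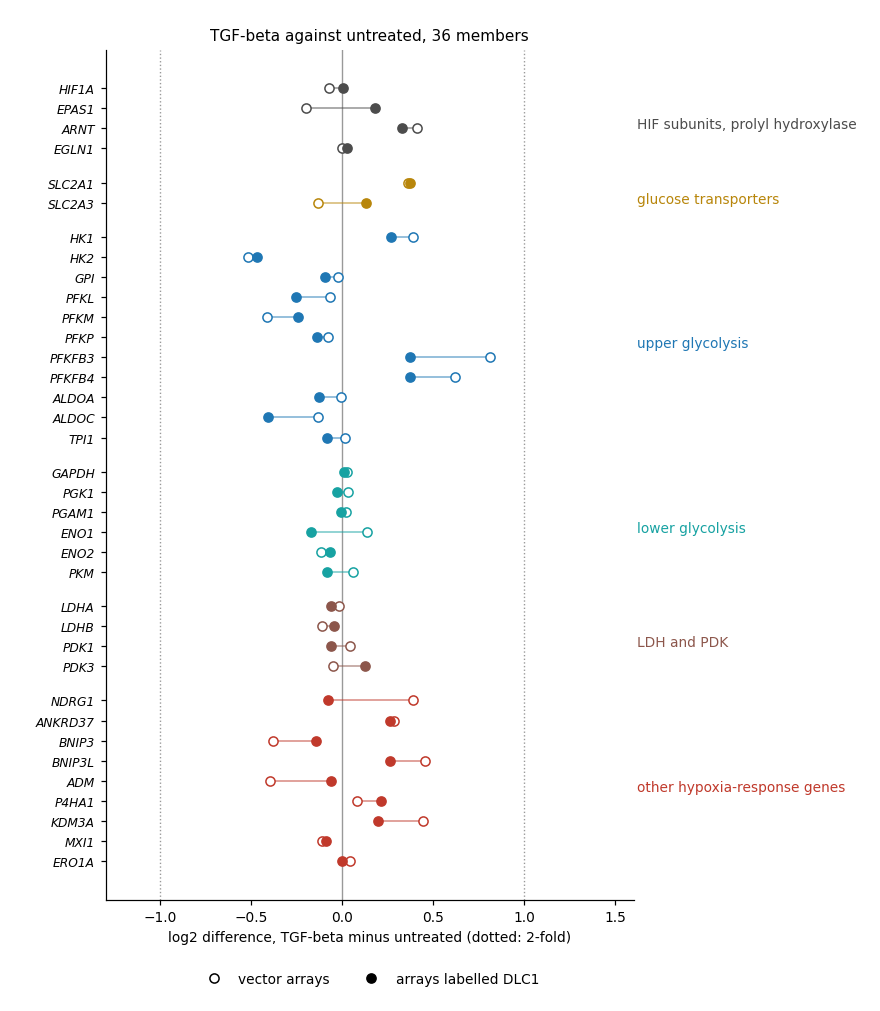
Log2 difference of each of the 36 kept members with TGF-beta against untreated, for vector cells (open circles) and cells labelled DLC1 (filled circles), ordered by role, with dotted lines at 2-fold. No member reaches either line; PFKFB3 lies highest at 0.81 in the vector arrays and HK2 lowest at -0.52.

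PFKFB3, the stronger kinase of the pair, read 7.35 untreated and 12.89 with TGF-beta in vector cells, and 6.78 and 8.77 in the arrays labelled DLC1. The differences were 0.81, or 1.75-fold, and 0.37. PFKFB4 read 2.34 and 3.60, then 2.23 and 2.89, for differences of 0.62 and 0.37. In both genes each array with TGF-beta lay above both untreated arrays. SLC2A1 read 10.11 and 12.96, then 11.64 and 15.07, and its differences of 0.36 and 0.37 were near equal. Its dim probe set 201249_at gave 0.47 and 0.77.

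The hexokinases lay on opposite sides of 0. HK2 read 20.47 untreated and 14.27 with TGF-beta in vector cells, and 23.31 and 16.86 in those labelled DLC1. Its differences were -0.52 and -0.47, and its other probe sets above the filter, 222305_at and 239410_at, gave -0.43 and -0.56, and -0.86 and -0.45. HK1 read 21.64 and 28.34, then 17.45 and 21.04, for differences of 0.39 and 0.27. The gap between the differences of HK1 and HK2 was therefore 0.91 in vector cells and 0.74 in cells labelled DLC1. PFKM, by contrast with the PFKFB genes, gave -0.41 and -0.24, and ALDOC -0.13 and -0.41. PFKL gave -0.07 and -0.25 in its brightest probe set, but 0.24 and -0.08 in 201102_s_at.

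**Figure D5:**
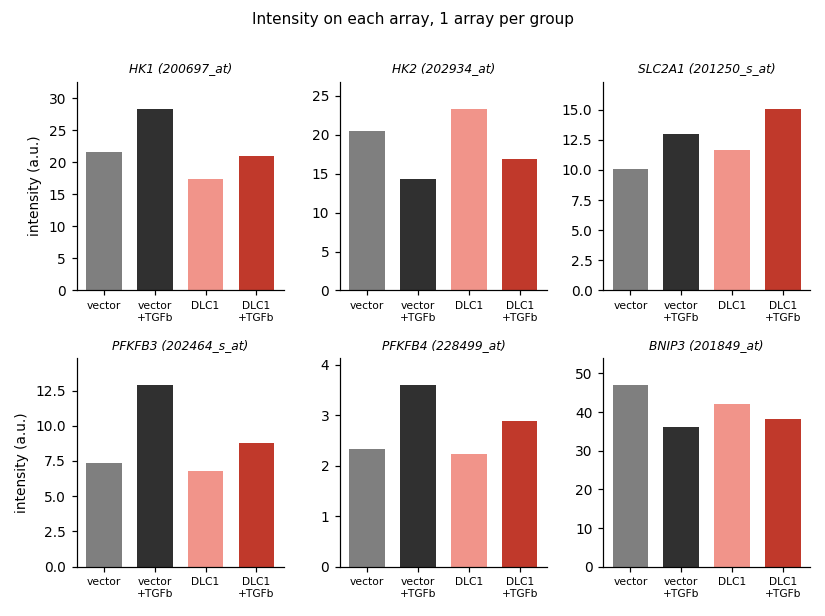
Intensity in arbitrary units of HK1, HK2, SLC2A1, PFKFB3, PFKFB4 and BNIP3 on each of the 4 arrays, as bars from 0, with 1 array per group and hence no error bar. HK2 and BNIP3 are lower on both arrays with TGF-beta than on both untreated arrays, and SLC2A1, PFKFB3 and PFKFB4 are higher.

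Among the hypoxia-induced genes with TGF-beta, BNIP3L gave 0.45 and 0.26 while its relative BNIP3 gave -0.38 and -0.14. Their gap was 0.83 in the vector arrays and 0.40 in those labelled DLC1. ADM read 53.71 and 40.74 in the vector arrays, a difference of -0.40, and 45.83 and 43.86 in the others, a difference of -0.06. NDRG1 gave 0.39 and -0.08, KDM3A 0.44 and 0.20 and ANKRD37 0.29 and 0.26. MXI1 gave -0.11 and -0.09. NDRG1, ANKRD37, SLC2A3, MXI1, EPAS1 and KDM3A, all higher in the arrays labelled DLC1, thus gave TGF-beta differences between -0.20, for EPAS1 in the vector arrays, and 0.44, for KDM3A there.

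Of the regulators, ARNT gave 0.41 and 0.33 in its brightest probe set, from 1.80 to 2.39 and from 1.64 to 2.06. Of its dimmer probe sets above the filter, 230619_at gave 0.12 and 0.26, 218222_x_at 0.06 and -0.38 and 231016_s_at 0.21 and -0.03. The ARNT sets thus lay on both sides of 0 in cells labelled DLC1. HIF1A, at -0.08 and 0.00, and EGLN1, at 0.00 and 0.03, hardly differed with TGF-beta. EPAS1 gave -0.20 and 0.18, and SLC2A3 -0.13 and 0.13. The 6 members of the lower steps of glycolysis lay between -0.12 and 0.14 in the vector arrays and between -0.17 and 0.01 in the arrays labelled DLC1, and the 4 lactate dehydrogenase and PDK members between -0.11 and 0.12 over both. By position, 5 members had both arrays with TGF-beta above both untreated arrays and 4 had them below, or 13.9% and 11.1%, beside 11.8% and 14.3% of all kept genes.

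Subtracting the TGF-beta difference of vector cells from that of cells labelled DLC1 compares the 2 responses. No member differed by 2-fold, where 0.19% of all kept genes were higher and 0.175% lower. NDRG1 at -0.47 and PFKFB3 at -0.44 lay lowest and EPAS1 at 0.38 highest. The array's control probe sets for beta-actin also differed with TGF-beta. The 5′ set gave 0.82 in the vector arrays and 0.27 in the others, and the 3′ set 0.39 and 0.18. Their part in these small differences was not tested.

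Other genes of the pathway were taken from lists that hold no member, also chosen with earlier results of these data known. Of 31 kept hypoxia-induced genes, 5 rose in the arrays labelled DLC1 without TGF-beta and 3 with it, and none fell. Of all kept genes 1.63% and 1.46% rose, and 2.34% and 1.64% fell. DDIT4, an inhibitor of mTOR signalling, read 13.20 and 12.71 against 39.71 and 43.10, and TMEM45A, a membrane protein gene, 6.15 and 10.79 against 14.77 and 22.21. VLDLR, a lipoprotein receptor gene, rose by 1.64 and 1.89. CCNG2, a cyclin gene, rose by 1.05 in the untreated pair and gave 0.82 in the treated pair. Its 3 other probe sets above the filter lay between 1.14 and 1.74 in the untreated pair, and 1 of them, 211559_s_at, rose in the treated pair too. PNRC1, a nuclear receptor coregulator gene, rose by 1.01 and gave 0.83. The list's medians were 0.25 and 0.14, beside -0.03 and -0.02 for all kept genes. In the untreated pair 22 of the 31 lay above 0 and 9 below, and in the treated pair 16 and 15. FAM162A gave -0.61 and -0.46, HILPDA -0.57 and -0.40 and GYS1 -0.54 and -0.56. HMOX1, which encodes haem oxygenase, gave 0.01 and -0.73, the lowest of the list in the treated pair. With TGF-beta, HMOX1 rose by 2.06 in vector cells and by 1.32 in cells labelled DLC1. BHLHE40, a circadian repressor gene, rose by 1.85 in vector cells and ANGPTL4, a lipase inhibitor gene, by 1.29, beside 0.78 and 0.68 in cells labelled DLC1. The responses of BHLHE40 parted by 2-fold in that probe set, 201170_s_at, at -1.06, but not in its other one, 201169_s_at, which gave 1.01 and 0.81, parting by -0.20. The second probe set of ANGPTL4, 223333_s_at, gave 0.77 and 0.35, under 2-fold in both backgrounds.

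VEGFA, the angiogenic factor and a classical HIF target, read 15.84 and 14.79 in the vector arrays and 26.86 and 24.25 in those labelled DLC1. That is a difference of 0.76 and 0.71. Its 3 other probe sets above the filter all lay above 0 too, between 0.63 and 1.77 when untreated and between 0.63 and 1.61 under TGF-beta.

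Among 13 other kept HIF regulators, CITED2, which competes with HIF for its coactivators, fell with TGF-beta, by 1.10 in vector cells, and gave -0.66 in cells labelled DLC1. It read 15.57 and 7.25, then 20.62 and 13.09, and 207980_s_at gave -1.06 and -0.70 while the dim 227287_at gave 0.14 and 0.08. No gene of that list passed 2-fold between the arrays labelled DLC1 and vector. Of 13 other kept glycolytic isozymes and side enzymes, BPGM, which makes 2,3-bisphosphoglycerate, rose with TGF-beta from 1.80 to 7.19 and from 1.12 to 2.54, past 2-fold in both backgrounds. Between the arrays labelled DLC1 and vector it gave -0.68 without TGF-beta and fell past 2-fold with it, at -1.50. PGM2, a phosphopentomutase, fell by 1.10 in the arrays labelled DLC1 when untreated and gave -0.78 under TGF-beta, and its 2 other probe sets gave -0.88 and -1.41, then -0.68 and -1.01.

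Enzymes that draw on glucose elsewhere stayed within 2-fold in all 4 differences. The 8 kept pentose phosphate enzymes had medians of 0.06 and 0.04 in the arrays labelled DLC1, with PGD, the 6-phosphogluconate dehydrogenase, at 0.60 and 0.56 and RPIA, a pentose isomerase, at -0.65 and -0.51. The 26 kept enzymes of pyruvate entry and the citrate cycle had medians of -0.11 in both states. Of these, 20 lay below 0 in the untreated pair and 21 in the treated pair. Over all 13137 kept genes 7026 and 6833 lay below 0, and the medians were -0.03 and -0.02. The malic enzymes ME1 and ME2 parted, at 0.55 and 0.43 against -0.62 and -0.39.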

How the data were processed

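The authors deposited intensities for 54675 probe sets on 4 arrays, linear, with 2 decimals, from 0.05 to 265.58. RMA is named without settings, per the submitters' processing notes, and the scale's divisor is not given in the sources used here. The arrays have medians of 0.38 to 0.39, so a shift of most genes at once is hidden, and rounding makes ratios of dim values coarse. Of 42898 probe sets in the platform annotation, 41097 have 1 symbol.

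From these, log2 was taken. A gene was its brightest probe set with 1 symbol, control sets left out, and was kept if its highest value reached 0.38, the median of all values. Differences of 2-fold or more were counted, beside all 13137 kept genes. Among 6388 genes with several probe sets above the filter, the differences of the brightest 2 parted by a median of 0.10 to 0.19. The 90th percentiles of this gap were 0.31 to 0.58. Of 18 such members, 1 to 7 per difference had these 2 sets on opposite sides of 0. The gap describes probe sets on the same arrays, and error between samples was not measured.

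The members and lists were chosen with earlier results of these data known. Values on every array are given for members past 2-fold, for the 3 highest and 3 lowest of each difference and for HIF1A. EPAS1, KDM3A, ERO1A, ENO1, EGLN1, HK1 and ARNT, and VEGFA outside the set, were added after their values were seen. Alternatives covered scaling, offset, floor, probe set, filter and fold. Python 3.11.15, numpy 2.4.6, pandas 2.3.3, matplotlib 3.10.9, R 4.3.3 and limma 3.58.1 were used.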

Additional observations from a re-analysis of the deposited data

How the results depend on the processing

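No paired analysis was possible because each group has 1 array and the labels give no replicate numbers. Counts of members past 2-fold were recomputed under 10 alternatives and stayed within 1.5 times their value with the exceptions given here. Medians over the members, recomputed under 9, have no measured error to be set against. For DLC1 against vector they ran from 0.024 to 0.10 in the untreated pair and from 0.032 to 0.11 in the treated pair. For TGF-beta they ran from -0.0022 to 0.026 in vector cells, so on both sides of 0, and from -0.050 to -0.012 in cells labelled DLC1. With arrays centred on the housekeeping list, NDRG1 joined ANKRD37, so 2 members rose in both states. With the mean of a gene's probe sets, SLC2A3 gave 0.84 with TGF-beta, and 1 member was left past 2-fold there. At 1.5-fold, 6 members were higher in the arrays labelled DLC1 without TGF-beta, 5 with it and 4 in both states, and 2 were higher with TGF-beta in vector cells. No value of a named member past 2-fold changed sign. The scalings moved the median of all kept genes by at most 0.05.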

Other observations

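MIR210HG, the host transcript of the hypoxia-induced microRNA miR-210, was looked up after its value had been seen and belongs to no list used here. Its probe set 230710_at read 0.50 and 0.67 in the vector arrays and 1 and 0.92 in the arrays labelled DLC1, a log2 difference of 1 when untreated and 0.46 under TGF-beta. The dimmer 236480_at read 0.26 and 0.29 against 0.43 and 0.32. These values lie near the filter, so the sizes are coarse.

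For PGK1, the phosphoglycerate kinase gene, the dim probe set 1558365_at read 0.41 and 0.48 in the vector arrays and 0.74 and 0.50 in those labelled DLC1, a difference of 0.85 without TGF-beta, while the brightest PGK1 set gave 0.08.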
